A study of Mus musculus with 12 samples.

Results

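Gene deserts are long stretches of the genome without annotated genes. In the merged list of ATAC-seq regions from mouse embryonic stem (ES) cells, a region was counted as a desert region when its center lay in no gene and more than 50 kb from the nearest transcription start site (TSS) of any annotated transcript, coding or non-coding (GENCODE M21, mm10). Of 170548 regions in the list, 166526 lay on the 19 autosomes, and 12610 of these (7.57%, 95% Wilson interval 7.45% to 7.70%) were desert regions. The other autosomal regions comprised 51652 intergenic regions 1 to 50 kb from a TSS (called nearer intergenic regions in the following), 64607 in introns, 9026 in exons, and 28631 promoter-proximal regions within 1 kb of a TSS. The desert region closest to the limit lay 50002 bp from a TSS and the nearer intergenic region closest to it 49999 bp.

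The series holds 12 ATAC-seq libraries in 6 groups of 2 replicates, and the list merges the peaks of both cell lines. Whether published data of ZHBTc4 cells in serum and LIF alone also entered the merge is not given in the sources used here. The study's methods also remove very wide peaks and peaks in Input or blacklisted positions, but the list still holds very wide ones. Overlap of desert regions with Input or blacklisted positions was not checked here. ZHBTc4 cells, in which a Tet-Off transgene supplies OCT4, were either untreated (OCT4 ON) or given 1 µg/ml doxycycline (dox) for 24 hr (OCT4 OFF). 2TS22C cells, in which a Tet-Off transgene supplies SOX2, were either untreated (SOX2 ON) or given the same dose (SOX2 OFF), each at 26 hr and 40 hr. All cells of these libraries grew in serum with LIF and the inhibitors CHIR99021 and PD184352, and each factor was studied in 1 engineered line. The list holds positions without a score or a value per library, so it cannot tell in which line, treatment or replicate a desert region was open, the depth behind each region is unknown, and the identity of the cells could not be checked on it.

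ATAC-seq marks open chromatin with a transposase that inserts sequencing adapters where DNA is not wrapped tightly around nucleosomes. Open sites far from genes are often enhancers, which contact promoters through loops of chromatin, or binding sites of CTCF, a zinc finger protein that anchors such loops. Some deserts beside genes of development are known to hold enhancers of those genes over long distances, whereas other deserts consist of AT-rich sequence with many copies of transposable elements. In ES cells, OCT4 and SOX2 bind side by side to a composite element made of a SOX site directly followed by an octamer.

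Sequences are given for the matches to this composite element and to CTCF, because they show the letters behind the motif counts given further on. The composite element was searched as CATTGTT directly followed by ATGCAAAT, on both strands of the central 200 bp. No desert center matched all 15 letters, 8 (0.0634%) matched with at most 1 mismatch and 41 (0.325%) with at most 2. No center of the 51652 nearer intergenic regions matched all 15 letters either. There, 6 (0.0116%) matched with at most 1 mismatch and 132 (0.256%) with at most 2. Of the 8 desert matches, the following 6 are shown as 40 bp read on the strand of the match. They are from GRCm38 (mm10), with the 15 matched letters in capitals.
Nebl and H2al2a desert, chr2:17892896-17892935, plus strand: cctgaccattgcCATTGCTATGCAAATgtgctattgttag
Veph1 and Shox2 desert, chr3:66687296-66687335, minus strand: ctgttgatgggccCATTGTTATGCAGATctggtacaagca
Manea and Epha7 desert, chr4:28300298-28300337, minus strand: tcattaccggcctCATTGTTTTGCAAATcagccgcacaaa
Epha7 and Map3k7 desert, chr4:29304014-29304053, minus strand: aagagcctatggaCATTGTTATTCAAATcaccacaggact
Tshz3 and Zfp536 desert, chr7:37192696-37192735, minus strand: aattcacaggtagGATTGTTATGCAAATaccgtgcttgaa
Terf2ip and Cntnap4 desert, chr8:112329937-112329976, plus strand: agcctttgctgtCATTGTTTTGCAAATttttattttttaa
The genes named are the nearest protein-coding genes on either side. These 6 regions were 217 to 813 bp wide and lay 52205 to 123812 bp from a TSS. The deserts around them held 3 to 21 regions each, so none belonged to the deserts richest in regions. Among the flanking genes, Shox2, Tshz3 and Zfp536 encode transcription factors, Epha7 an ephrin receptor and Cntnap4 a neuronal membrane protein of the neurexin family.

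The CTCF core was searched as CCACNAGGG. The following 4 matches lie in the deserts that held the most regions, with the matched letters in capitals.
Trim52 and Slitrk1 desert, chr14:107442349-107442388, plus strand: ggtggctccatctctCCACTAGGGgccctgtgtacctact
Trim52 and Slitrk1 desert, chr14:107448117-107448156, plus strand: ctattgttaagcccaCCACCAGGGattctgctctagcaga
Tpm3-rs7 and Gpc5 desert, chr14:114566742-114566781, plus strand: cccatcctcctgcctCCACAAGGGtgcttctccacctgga
Cdh8 and Cdh11 desert, chr8:101382729-101382768, minus strand: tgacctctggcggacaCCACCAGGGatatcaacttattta
The first pair lies in separate regions of the same desert, 519 bp and 1139 bp wide. The wider of the pair was the widest region of the desert that held the most regions.

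To show what other desert centers hold, the central 200 bp are given on the plus strand for the desert region farthest from a TSS and for the widest region of the desert that ranked second by its number of regions. Capitals mark matches to the motifs described further on.
Farthest from a TSS, Dsel and Cntnap5a desert, chr1:114594340-114594539: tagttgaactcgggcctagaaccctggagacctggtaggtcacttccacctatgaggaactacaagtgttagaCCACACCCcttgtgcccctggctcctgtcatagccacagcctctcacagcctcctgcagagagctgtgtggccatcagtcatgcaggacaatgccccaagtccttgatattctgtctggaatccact
Widest of the Slitrk1 and Slitrk6 desert, chr14:108974519-108974718: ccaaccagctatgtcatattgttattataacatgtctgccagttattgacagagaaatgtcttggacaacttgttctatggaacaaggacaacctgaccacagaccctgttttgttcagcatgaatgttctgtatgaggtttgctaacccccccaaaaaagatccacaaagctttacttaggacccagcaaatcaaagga
The first holds a Krüppel-like factor (KLF) site on the minus strand, and the second, from a region of 1615 bp, holds none of the motifs searched.

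Desert sequence held fewer open regions per Mb than any other class of sequence. It made up 371 Mb, or 15.5% of assembled autosomal sequence, with 33.98 regions per Mb (95% Poisson interval 33.4 to 34.6). Nearer intergenic sequence held 62.3 regions per Mb, introns 67.0, exons 112 and promoter-proximal sequence 190. Had the regions of each chromosome been spread evenly over its assembled bases, deserts would have held 25575 regions, and the observed number was 0.493 times that. The density was lower in deserts than in nearer intergenic sequence on 19 of 19 autosomes (two-sided exact sign test over chromosomes, p = 3.8e-06, adjusted p = 5.7e-06 over 6 such comparisons). Chromosomes share all libraries and are not replicates, so this p describes only how steady the direction was along the genome. Desert densities ran from 23.7 per Mb on chromosome 19 to 45.1 on chromosome 13, with a median of 33.0, and those of nearer intergenic sequence from 52.3 to 83.2.

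The density decreased with distance beyond 10 kb from a TSS and continued to decrease inside deserts. It was highest at 5 to 10 kb, with 73.7 regions per Mb, and was 51.0 at 20 to 50 kb. Inside deserts it was 37.9 at 50 to 100 kb, 30.6 at 100 to 200 kb and 24.8 at 200 to 400 kb. The interval at 400 to 800 kb, 20.9 to 31.6 per Mb over 95 regions, contained the density of the bin before it, so these bins could not be told apart. The share of GC also fell over these bins, from 39.7% of desert sequence at 50 to 100 kb to 37.3% at 400 to 800 kb.

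**Figure D1:**
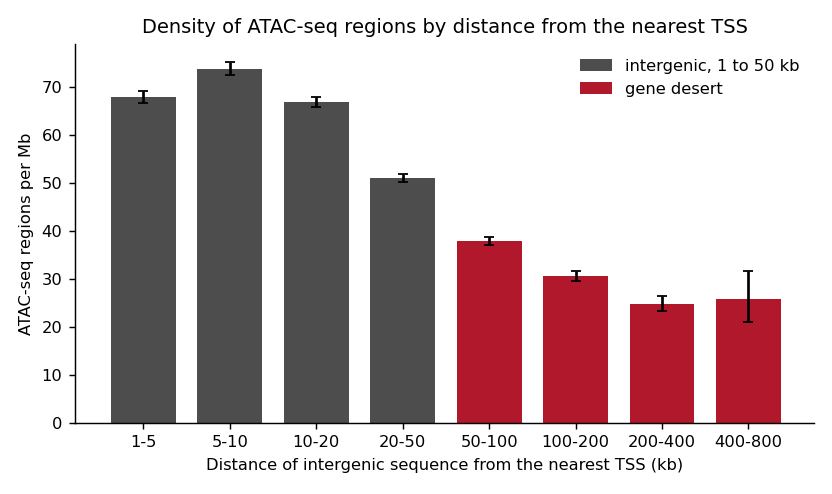
Regions per Mb of assembled intergenic sequence (y axis) in bins of distance from the nearest TSS in kb (x axis), with nearer intergenic bins in gray, desert bins in red and 95% Poisson intervals for counting error. Desert bins lie between 24.8 and 37.9 per Mb, all below the 51.0 per Mb of the 20 to 50 kb bin.

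The density differed less between deserts and nearer intergenic sequence when both had the same base composition. Desert sequence had 39.2% GC against 41.6% in nearer intergenic sequence, and the density rose with GC in both. In windows of 10 kb under 36% GC, deserts held 21.2 regions per Mb and nearer intergenic sequence 22.4. In windows of at least 46% GC, the values were 79.4 and 120 per Mb. The ratio of the densities fell from 0.943 in the AT-richest band to 0.661 in the GC-richest. Within bands of equal GC the deserts held 0.797 times the regions of nearer intergenic sequence, compared with 0.545 times without regard to GC.

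Regions that lay almost wholly inside repeats departed from this pattern. Repeats are soft-masked, that is written in lower case, in the reference sequence, and 39.4% of desert sequence was masked against 39.0% of nearer intergenic sequence. Desert regions masked over at least 90% of their length, called highly masked here, numbered 1772, or 14.1% of desert regions, against 3899 or 7.55% of nearer intergenic regions. Per Mb these were 4.78 in deserts and 4.71 in nearer intergenic sequence, a ratio of 1.01. By contrast, regions masked over less than 25% of their length, called little-masked, occurred at 17.7 per Mb in deserts and 37.5 per Mb in nearer intergenic sequence, a ratio of 0.471. Regions masked over 25% to 90% were also sparser in deserts, at 11.5 per Mb against 20.1 per Mb in nearer intergenic sequence. The ratio for the highly masked regions was below 1 on 8 autosomes and above 1 on 11, from 0.465 on chromosome 7 to 1.38 on chromosome 9. For the little-masked regions it was below 1 on 19 of 19 autosomes, from 0.313 to 0.729. Both limits on masking were chosen after the values were seen, so no test is given.

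**Figure D2:**
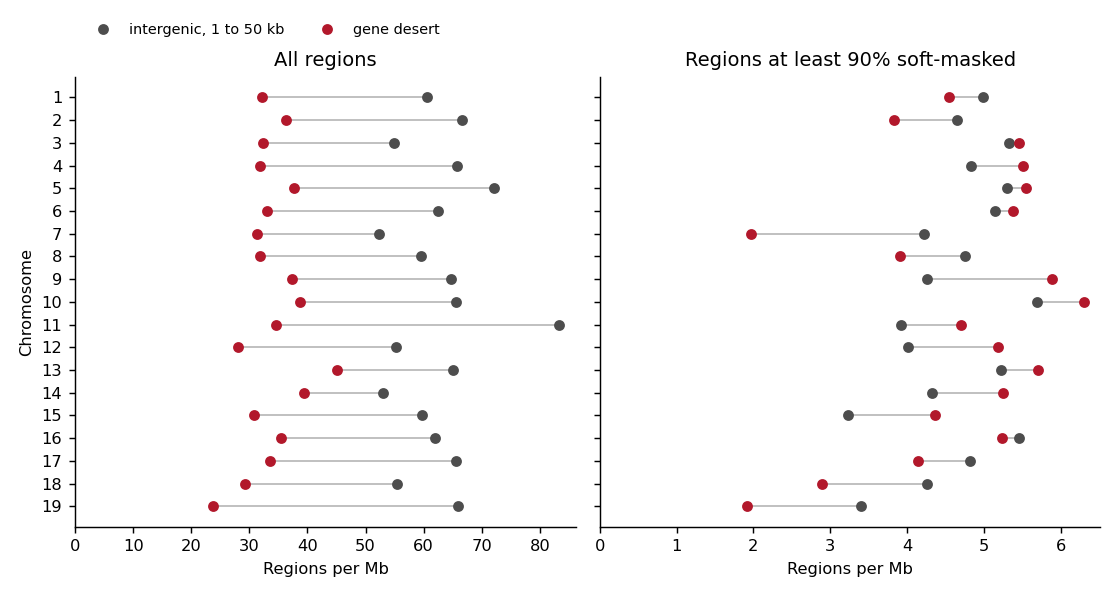
Regions per Mb (x axes) on each autosome (y axis) in gene deserts (red) and in intergenic sequence 1 to 50 kb from a TSS (gray), for all regions (left) and for regions at least 90% soft-masked (right). The red points are left of the gray ones on 19 of 19 autosomes in the left panel and on 8 of 19 in the right panel.

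The mean masked share of desert regions was 36.9%, higher than the 29.1% of nearer intergenic regions on 18 of 19 autosomes (exact sign test, p = 7.6e-05, adjusted p = 9.2e-05). Chromosome 7 was the exception, with 23.7% in desert regions and 30.5% in nearer intergenic ones. The masked shares of desert regions spread widely, with quartiles at 7.0%, 22.4% and 69.1%. Against all desert sequence, the regions were less masked on 16 of 19 autosomes (exact sign test, p = 0.0044, adjusted p = 0.0044), and over the autosomes together the values were 36.9% and 39.4%. Windows of each region's own width, centered 1 kb to either side, had mean masked shares of 36.6% and 36.7%. Over the autosomes together, the regions were thus not less masked than the sequence beside them.

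To see whether the highly masked desert regions share sequence, the 24-mers in their central 200 bp were counted, with either strand read as the same. The 4 that reached the most regions in turn are shown because each marks many copies of a repeated sequence.
24-mer 1: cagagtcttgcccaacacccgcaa
24-mer 2: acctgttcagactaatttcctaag
24-mer 3: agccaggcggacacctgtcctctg
24-mer 4: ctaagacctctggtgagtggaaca
24-mer 1 was in 186 of the 1772 highly masked desert regions (10.5%), 24-mer 2 in 130, 24-mer 3 in 101 and 24-mer 4 in 119, and some regions held more than 1 of them. The autosomes held 5782 exact copies of 24-mer 1, of which 1629 lay in deserts. A listed region covered 37.2% of the desert copies and 34.7% of the copies elsewhere. The shares were 45.1% and 44.2% for 24-mer 2, 53.6% and 53.5% for 24-mer 3, and 29.4% and 27.9% for 24-mer 4. For each of the 4, the share of copies that were listed as open differed by at most 2.5 percentage points between deserts and the rest of the autosomes. The 24-mers were picked for the number of listed desert regions that hold them. This choice favors the desert share, so the comparison is a description only. Reads from near-identical copies can align to several places, and how such reads were treated is not given in the sources used here, so which copies were open cannot be told from the list.

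Desert regions were narrower than nearer intergenic regions. Their median width was 312 bp (95% interval 306 to 318), with quartiles at 201 and 540 bp, against 356 bp (353 to 359), and it was lower on 19 of 19 autosomes (exact sign test, p = 3.8e-06, adjusted p = 5.7e-06). Regions under 200 bp made up 24.4% of desert regions and 20.4% of nearer intergenic ones. Promoter-proximal regions, for comparison, had a median width of 754 bp. The widest desert regions were 2586 bp, between Snx16 and the RNA-binding protein gene Ralyl (chr3:11210956-11213541), 2166 bp, between the nuclear receptor genes Rarb and Thrb (chr14:17559645-17561810), and 2132 bp, between Nlrp1b and Wscd1 (chr11:71382930-71385061). The last of these was 90.7% masked and the Rarb and Thrb region 20.3%.

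Open regions in deserts were much richer in GC than the sequence around them, yet poorer in GC than open regions nearer to genes. The median GC was 46.2% in desert regions (95% interval 46.1% to 46.4%) against 48.3% in nearer intergenic regions, lower on 19 of 19 autosomes (exact sign test, p = 3.8e-06, adjusted p = 5.7e-06). It exceeded the GC of desert sequence of the same chromosome on 19 of 19 autosomes (exact sign test, p = 3.8e-06, adjusted p = 5.7e-06), by 7.09 percentage points over the autosomes together. Windows of the same width as each desert region, centered 1 kb to either side of it, had median GC of 39.9% and 40.0%. Highly masked desert regions had a higher median GC, 52.5%, than the little-masked ones, 45.7%. Only 273 desert regions (2.16%) were rich in CpG, with a width of at least 200 bp, over 50% GC and an observed-to-expected CpG ratio over 0.6, and 188 of these were highly masked. In nearer intergenic sequence, 1219 regions (2.36%) were rich in CpG, 344 of them highly masked.

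**Figure D3:**
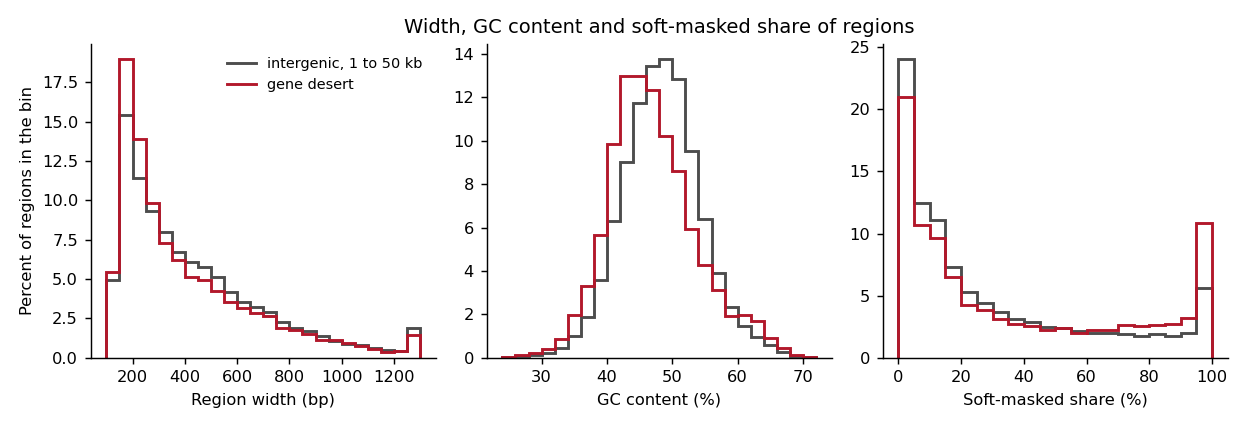
Percent of regions (y axis) by width in bp, GC content and soft-masked share (x axes, last bin of the width panel open-ended) for desert regions (red) and intergenic regions 1 to 50 kb from a TSS (gray). Desert regions lie lower in width (median 312 against 356 bp) and GC (46.2% against 48.3%), and 14.1% against 7.55% of regions are at least 90% masked.

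Of 10 motifs searched, 9 were more frequent in the centers of desert regions than in their flanks. Matches were counted on both strands in the central 200 bp and in windows of the same size centered 1 kb to either side, and shares are percentages of regions. A match is a description of the letters and not a bound site. The same 9 motifs were more frequent in centers than in flanks of nearer intergenic regions too. Their ratios of centers to flanks ran from 1.28 to 3.62 there and from 1.36 to 3.73 in deserts. Desert regions were also richer in GC than their flanks, and the part of this in the motif counts was not tested. The composite element, with at most 2 mismatches, was in 0.325% of desert centers (95% Wilson interval 0.240% to 0.441%) against a mean of 0.0872% of flanks, higher on 16 of 19 autosomes (exact sign test, p = 0.0044, adjusted p = 0.0055 over 10 motifs). With at most 1 mismatch the direction did not pass the threshold (8 centers, exact sign test, p = 0.18), and in the central 400 bp the ratio of centers to flanks was 2.14, compared with 3.73 in 200 bp. Over all autosomal regions 0.22% of centers held it. In nearer intergenic regions the shares were 0.256% and 0.0707%, and the center share was higher in deserts on 10 autosomes and lower on 9 (exact sign test, adjusted p = 1), a test that gives no bound on the difference. Of the 41 matches, 24 were in little-masked regions, which made up 52.1% of desert regions. Highly masked ones, 14.1% of desert regions, held 2. Of the 132 matches in nearer intergenic regions, 97 were in little-masked regions (60.2% of those regions) and 2 in highly masked ones (7.55%). Matches at 50 to 100 kb numbered 29 in centers against 4 and 6 in the left and right flanks. Beyond 100 kb, where 4844 regions remained, they numbered 12 against 4 and 8, and the excess was no longer past the threshold (exact sign test, p = 0.79).

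The octamer ATGCAAAT, bound by POU factors such as OCT4, was in 3.31% of desert centers and 1.86% of flanks, higher on 18 of 19 autosomes (exact sign test, adjusted p = 0.00013). All autosomal regions had it at 2.0%. Desert centers exceeded nearer intergenic centers, at 2.42%, on 17 of 19 autosomes (exact sign test, adjusted p = 0.0036), and the flanks of deserts, at 1.86%, also exceeded those of nearer intergenic regions, at 1.32%. In highly masked desert regions 6.88% of centers held the octamer, against 2.96% in the little-masked ones. In nearer intergenic regions these shares were 8.80% and 1.86%, so among highly masked regions the octamer was less frequent in deserts. The SOX element CATTGTT was in 5.67% of desert centers and 4.16% of flanks (higher on 17 of 19 autosomes, exact sign test, adjusted p = 0.001), against 4.11% of centers over all autosomal regions. It was more frequent in desert than in nearer intergenic centers, at 4.39%, on 19 of 19 autosomes (exact sign test, adjusted p = 3.8e-05), beside flanks of 3.44% in the latter.

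CTCF and KLF matches were enriched in desert centers but less frequent than in nearer intergenic centers. The CTCF core was in 1.31% of desert centers and 0.404% of flanks (18 of 19 autosomes, exact sign test, adjusted p = 0.00013), against 1.90% of nearer intergenic centers and 1.72% over all autosomal regions. It was lower in desert than in nearer intergenic centers on 15 of 19 autosomes (exact sign test, adjusted p = 0.048). The lower share was seen in little-masked regions, with 1.25% of desert against 2.26% of nearer intergenic centers. Regions masked over 25% to 90% of their length had 1.43% against 1.40%, and highly masked ones 1.24% against 1.13%. The KLF site GGGTGTGG was in 2.83% of desert centers and 1.07% of flanks (19 of 19 autosomes, exact sign test, adjusted p = 1.3e-05), against 3.81% of nearer intergenic centers and 3.56% over all autosomal regions. It was likewise lower in desert than in nearer intergenic centers on 15 of 19 autosomes (exact sign test, adjusted p = 0.048). The flanks of nearer intergenic regions held more of both motifs too, at 0.649% for CTCF and 1.59% for KLF.

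The remaining motifs differed less between deserts and nearer intergenic regions. The site TCAAGGTCA of the nuclear receptor ESRRB, a factor of the ES cell network, was in 1.21% of desert centers against 0.436% of flanks (19 of 19 autosomes, exact sign test, adjusted p = 1.3e-05), beside 1.21% over all autosomal regions. The AP-1 site TGACTCA of FOS and JUN was in 4.78% against 3.01% (19 of 19 autosomes, exact sign test, adjusted p = 1.3e-05), beside 4.7% over all regions. The TEAD site ACATTCCA was in 1.7% against 0.944% (18 of 19 autosomes, exact sign test, adjusted p = 0.00013), beside 1.6% over all regions. The palindrome TTCCNGGAA of STAT factors, which act downstream of LIF, was in 0.809% against 0.444% (higher on 15 and lower on 3 autosomes, exact sign test, adjusted p = 0.0084), beside 0.876% over all regions. The PRDM14 site GGTCTCTAA was in 14 desert centers, or 0.111%, against 0.151% of flanks (5 higher and 9 lower, exact sign test, adjusted p = 0.42), beside 0.129% over all regions. In nearer intergenic centers the shares were 1.28% for ESRRB, 5.16% for AP-1, 1.84% for TEAD, 0.968% for STAT and 0.134% for PRDM14. For these motifs the adjusted p of the exact sign test against nearer intergenic centers ran from 0.33 to 1, so no difference was shown, which does not mean that the shares were equal.

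**Figure D4:**
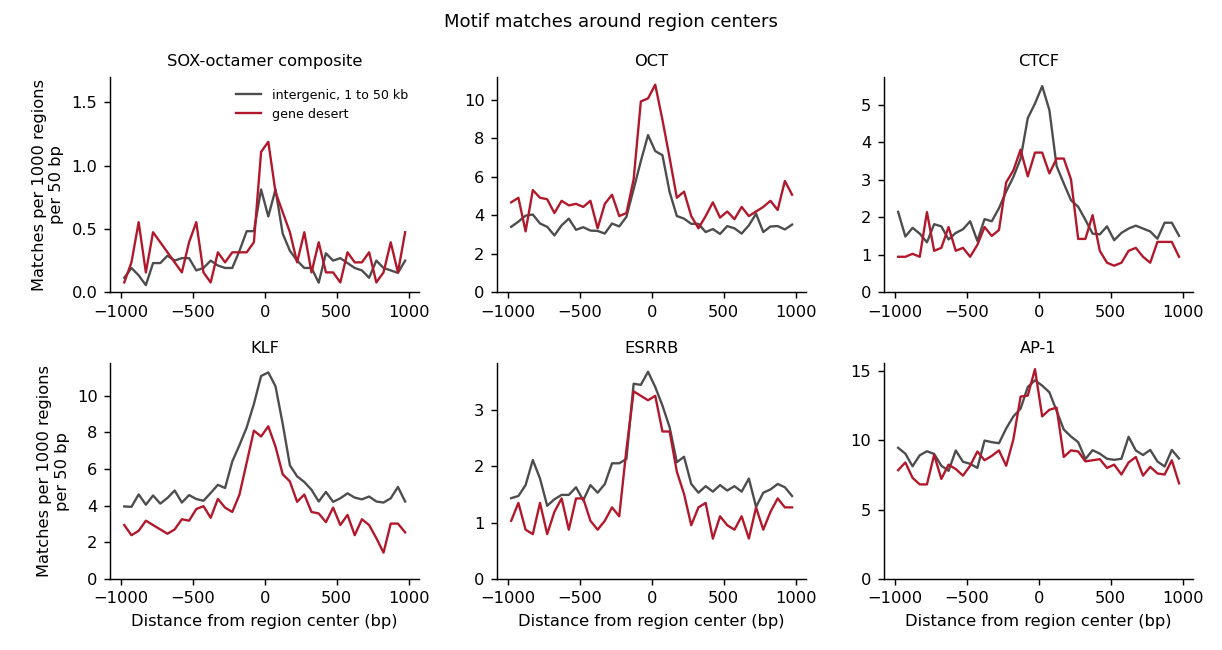
Matches per 1000 regions in bins of 50 bp (y axes) by distance from the region center in bp (x axes) for 6 of the 10 motifs, in desert regions (red) and intergenic regions 1 to 50 kb from a TSS (gray). All 6 are higher near the center than 1 kb away in deserts; the octamer lies higher in deserts (3.31% against 2.42% of centers) and CTCF lower (1.31% against 1.90%).

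Without a motif chosen in advance, the 8-mers with the largest ratio of centers to flanks were rich in C and G. Among 8711 8-mers present in at least 100 desert centers, CGTCCGGA led, with 103 centers against a mean of 2.0 flanks, followed by CCGGACGG with 102 against 2.0. Part of 24-mer 3, AGGCGGAC, was in 199 centers against 4.5 flanks. In the 6564 desert regions masked under 25%, the ratios were lower and the leading 8-mers were others. CCCTGAGG was in 144 centers against 37.5 flanks (ratio 3.84) and CAGCAGGG in 210 against 64.0. CAAGGTCA, the core of the ESRRB site, was in 209 against 73.5, and ACAAAGGG, which holds a core bound by SOX factors, in 160 against 58.0. The 8-mers were ranked by these ratios, which are descriptions without a test.

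Desert sequence fell into 3523 unbroken stretches, each counted as a desert, of which 2623 held a region and 900 held none. Those without a region were mostly short, with a median of 15.4 kb against 61.9 kb over all deserts. Of the 1246 deserts of at least 100 kb, 40 held no region, and their density had a median of 28.6 regions per Mb (quartiles 16.5 and 43.6). With deserts ranked by their number of regions, the first 494, or 14.02%, made up 37.6% of desert sequence and held 50.0% of desert regions. Because the ranking used the counts themselves, these shares are a description and do not show that regions cluster. Desert regions lay at a median of 7.77 kb from the nearest region of any class, against 3.60 kb for nearer intergenic regions. Another region within 10 kb was found for 57.8% of desert regions and 80.4% of nearer intergenic ones. Across the deserts of at least 100 kb the density went with GC (Spearman's rho 0.26 across 1246 deserts, which share all libraries), from a median of 25.2 per Mb under 36% GC and 23.9 at 36% to 38% GC to 49.8 per Mb at 44% GC and more. The nearest TSS belonged to a protein-coding gene for 2558 desert regions (20.3%), and to a non-coding gene or pseudogene for the others.

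The 10 deserts that held the most regions were all AT-rich, at 35.8% to 38.7% GC, and together held 382 regions, 3.03% of desert regions. First was the desert of 660 kb between Trim52 and Slitrk1 (chr14:106816031-107476243), with 53 regions or 80.3 per Mb. This desert lay 680 kb from Trim52 and 1433 kb from Slitrk1, so it was only a part of the sequence between these genes. The next held 51 regions in 509 kb (100.2 per Mb) on the other side of Slitrk1, toward Slitrk6 (chr14:108964159-109473098). Slitrk1, Slitrk5 and Slitrk6 encode membrane proteins with leucine-rich repeats that organize synapses. Between Slitrk5 and Tpm3-rs7, 32 regions lay in 277 kb (116 per Mb). Between Tpm3-rs7 and Gpc5, a glypican gene, lay a further pair of the 10 deserts, with 38 regions in 410 kb and 33 in 311 kb.

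The other 5 of the 10 lay on other chromosomes. The desert between Rgs18 and Brinp3, a gene expressed in neurons, held 39 regions in 994 kb (chr1:145376692-146370435, 39.2 per Mb). Cdh8 and Cdh11, which encode classical cadherins for adhesion between cells, flanked 37 regions in 713 kb (chr8:100776356-101489707, 51.9 per Mb). The actin nucleator gene Cobl and Pom121l12 flanked 34 regions in 1024 kb, of which 16 were highly masked. The longest of all deserts, 1156 kb between Dsel and Cntnap5a, a gene of the neurexin family, also held 34 (29.4 per Mb). It held the 3 desert regions farthest from a TSS, at 594, 613 and 625 kb. Ythdf3, which encodes a reader of methylated RNA, and Cypt12 flanked 31 regions in 540 kb, tied with the desert between the polarity gene Pard3 and Nrp1, which encodes a receptor of semaphorins.

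**Figure D5:**
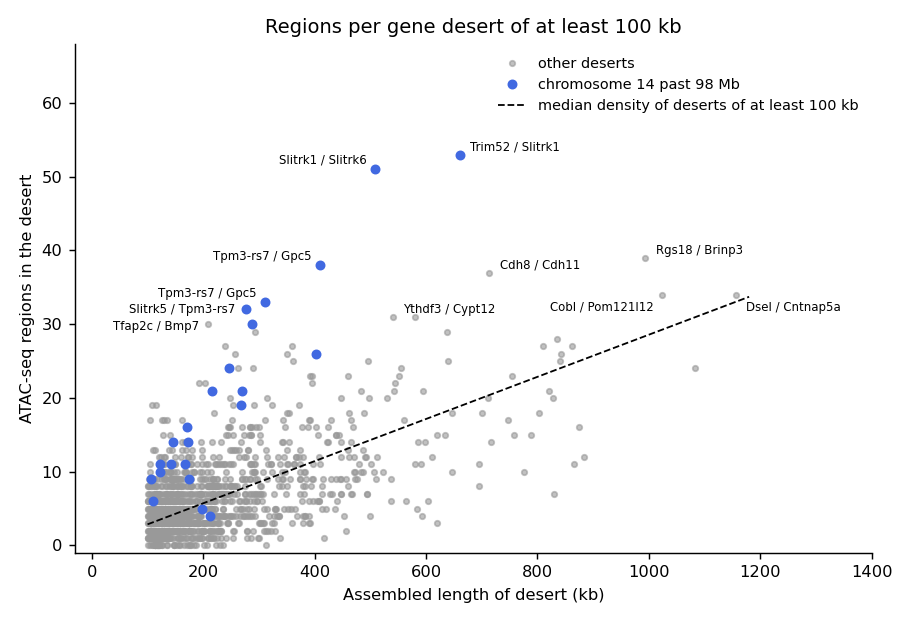
Number of regions (y axis) against assembled length in kb (x axis) for the 1246 deserts of at least 100 kb, with flanking protein-coding genes named for the 10 deserts with the most regions and for the Tfap2c and Bmp7 desert, with deserts on chromosome 14 past 98 Mb in blue and a dashed line at the median density of 28.6 regions per Mb. The blue deserts, with a median of 81.6 per Mb, include 5 of the 10 with the most regions.

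All 5 leading deserts of chromosome 14 lay in its last part, past 98 Mb. In windows of 1 Mb, the number of regions of all classes together ran from 6 to 125 (median 40.5) over the 94 windows from 4 to 98 Mb and from 55 to 180 (median 104.5) over the 26 windows from 98 to 124 Mb. The windows just before 98 Mb were among the emptiest, with 8 to 18 regions (median 13) in the 9 windows from 88 to 97 Mb and 41 in the window that starts at 97 Mb. Deserts past 98 Mb held 574 regions at 83.2 per Mb, those before it 237 at 17.4 per Mb, and those of the other autosomes 33.7 per Mb. Regions past this point were also narrow. Their median width in deserts was 214 bp, with 42.0% under 200 bp, against 347 bp and 13.1% before 98 Mb and 318 bp and 23.8% on the other autosomes. Nearer intergenic regions of the same stretch had a median width of 252.5 bp with 34.5% under 200 bp, against 358 bp and 20.1% on the other autosomes. Of the 53 regions between Trim52 and Slitrk1, 21 were under 200 bp, and of the 51 between Slitrk1 and Slitrk6, 25. The position of 98 Mb was chosen after the values were seen. The number of copies of this stretch in either cell line was not measured, and its part in the result was not tested.

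With regions under 200 bp left out, the Trim52 and Slitrk1 desert still held the most, with 32 regions, but the next were the Cdh8 and Cdh11 desert with 28 and a desert of 209 kb between Tfap2c and Bmp7 with 27, tied with the Cobl and Pom121l12 desert. With all widths, the Tfap2c and Bmp7 desert (chr2:172602117-172814340) had the highest density among deserts of at least 200 kb, 30 regions at 144 per Mb. It was GC-rich, at 49.7%, none of its regions was highly masked and 3 were under 200 bp. Tfap2c encodes the transcription factor AP-2 gamma of trophoblast and germ cells, and Bmp7 encodes a secreted signal. Also among those of highest density were the desert between Slitrk5 and Tpm3-rs7, that between the neuropeptide gene Npvf and the transcription factor gene Nfe2l3 (109 per Mb), and 1 of the pair between Tpm3-rs7 and Gpc5 (106 per Mb).

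The 5 longest deserts without a region were AT-rich too. The longest spanned 313 kb between Klhl29 and Apob, the gene of the main protein of low-density lipoprotein. The next lay between Eepd1 and B3gat1 (235 kb), between Celf4, which encodes a neuronal RNA-binding protein, and Pik3c3 (230 kb), between Dsel and Cntnap5a (222 kb), and between the cadherin genes Cdh9 and Cdh10 (206 kb). Their GC, 36.1% to 39.5%, overlapped that of the 10 deserts with the most regions. The same pair of genes, Dsel and Cntnap5a, thus flanked both the longest desert, with 34 regions, and a desert without a region.

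Deserts were also grouped by whether a flanking protein-coding gene belonged to a list of pluripotency, developmental, or neuronal adhesion and synapse genes. A gene counted as flanking when it was the nearest protein-coding gene on either side, at any distance. Of 136 developmental genes found in the annotation, 62 flanked 116 deserts of at least 100 kb, with a median of 31.3 regions per Mb (95% interval 28.0 to 35.1). Of 123 neuronal adhesion and synapse genes, 98 flanked 363 deserts, with a median of 25.8 (23.4 to 28.2). Of 49 pluripotency genes, 8 flanked such a desert, with a median of 26.8 over 14 deserts (15.8 to 57.2). The share of all protein-coding genes that flanked such a desert was not computed, so these counts of genes have no background. The median over all deserts of at least 100 kb was 28.6 (27.2 to 30.1). The intervals of the pluripotency and developmental lists contained this median, and that of the neuronal list lay below it but overlapped its interval. The deserts beside neuronal genes were poorer in GC, with a median of 37.3% against 38.4% over all. Of the 10 deserts with the most regions, 6 had a gene of the neuronal list beside them and none a gene of the other lists, and 3 of the 6 lay on chromosome 14 past 98 Mb. The neuronal genes lay from 50 kb (Slitrk1, second desert) to 1433 kb (Slitrk1, first desert) from these deserts. Developmental and pluripotency genes flanked 116 and 14 of all 1246 deserts of at least 100 kb, so none among 10 says little about those lists. Neuronal genes flanked 29.1% of the deserts of at least 100 kb and 33.3% of their sequence, and 41.4% of the deserts of at least 300 kb. The lists were drawn up with earlier results of these data known, and no test was made on them.

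Beside pluripotency genes the desert with the most regions lay 320 kb beyond Sox2, toward Atp11b (chr3:34972652-35226130), with 15 regions in 253 kb (59.2 per Mb, 4 of them under 200 bp). Nr5a2, which encodes a nuclear receptor of the ES cell network, lay 621 kb from a desert of 103 kb with 8 regions. Ptprc, on the other side of that desert, was nearer, at 379 kb. Myc lay 388 kb from a desert toward Gsdmc with 8 regions in 140 kb. Tbx3 flanked 7 regions in 131 kb toward Med13l. Klf4, a reprogramming factor, flanked 7 in 289 kb (24.3 per Mb), below the median of all deserts.

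Beside developmental genes the Tfap2c and Bmp7 desert came first. It was followed by a desert of 835 kb between Zeb2, a repressor of epithelial genes, and the activin receptor gene Acvr2a, with 28 regions (33.5 per Mb, 11 under 200 bp). Zeb2 and Acvr2a lay 1540 kb and 1322 kb from that desert. Bmp2, which encodes a secreted signal, 71.5 kb away, and Hao1, directly adjacent, flanked 27 regions in 863 kb (31.3 per Mb). The homeobox gene Meis2, 513 kb away, and Tmco5, 51.5 kb away, flanked 20 regions in 249 kb (80.4 per Mb). The zinc finger gene Sall1, 673 kb away, and Tox3, directly adjacent, flanked 20 in 530 kb (37.8 per Mb). Beside neuronal genes the first 5 were those already named beside Slitrk1 on either side, Brinp3, Cdh8 and Cntnap5a.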

How the data were processed

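Per the labels and the study's methods, the authors aligned ATAC-seq reads from 12 libraries to mm10 (GRCm38) with STAR 2.6.1c, removed duplicates with Picard, called peaks on fragments with MACS2 2.1.1.20160309 and combined those of both cell lines into 1 list with BEDTools. For their analysis they also removed peaks above a width limit and those overlapping Input peaks or blacklisted positions. The list used here still holds regions up to 58315 bp wide with centers in introns, so the width limit had not been applied to it. Whether desert regions overlap Input peaks or blacklisted positions was not checked. Whether peaks were called per replicate, and whether published serum and LIF data entered the merge, is not given in the sources used here. The deposited values are start and end positions in bp, with no score, count or value per sample, so no comparison between dox-treated and untreated cells and no test over replicates was possible, and the depth is unknown.

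Centers were assigned to promoter-proximal sequence (within 1 kb of a TSS), exons, introns, nearer intergenic sequence and deserts (over 50 kb), with GENCODE M21 and the soft-masked GRCm38 sequence. Densities count assembled bases. Deserts and nearer intergenic sequence were compared by two-sided exact sign tests over the 19 autosomes with Benjamini-Hochberg adjustment. Intervals are Wilson (shares), Poisson (densities) and order-statistic (medians) intervals at 95% and cover counting error over regions, which are not replicates. Named genes flank the 10 deserts with the most regions, the 5 densest of at least 200 kb, the 5 longest without a region, the 3 farthest and 3 widest regions, and the 5 deserts with the most regions beside each gene list. Of the 5 densest, 1 is not reported here. For the sequences shown, the genes flanking the 6 composite matches are named as well. Members, motifs and gene lists were chosen with earlier results of these data known. Alternatives changed the distance limit, the annotation, the region filter, the denominator, the motif window and mismatches, and the length of deserts. The functions were tested on simulated data. Versions were SciPy 1.17.1, NumPy 2.4.6, pandas 2.3.3, matplotlib 3.10.9 and Python 3.11.15.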

Additional observations from a re-analysis of the deposited data

How the results depend on the processing

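Of 39 values recomputed under the alternatives chosen at the outset, 31 kept their direction and their side of the threshold or stayed within the range allowed, and none changed direction. The density ratio of deserts to nearer intergenic sequence stayed below 1 throughout. The number of desert regions was 4844 beyond 100 kb and 36792 when only protein-coding genes were considered, as the rule itself then covers less or more sequence. The ratio of center to flank matches of the composite element, 3.73, became 2.0 beyond 100 kb (exact sign test, p = 0.79), 2.14 in the central 400 bp (p = 0.0075) and 8.0 with at most 1 mismatch (p = 0.18), with 8 matched centers. The largest number of regions in a desert, 53, became 32 for regions of at least 200 bp and 341 with protein-coding genes only, in a stretch between Adam6a and Zfp386 that is full of genes of other types. For deserts of at least 300 kb, the median density was 11.5 per Mb beside pluripotency genes (1 desert) and 22.4 beside neuronal genes, against 23.9 over all. Among alternatives chosen after seeing the data, leaving out chromosome 14 kept the direction and side of the threshold of the 7 values recomputed, with the largest number of regions in a desert at 39. Restricting the 8-mers to little-masked regions lowered the leading ratio from 51.5 to 3.84. No paired analysis was possible because merged positions carry no values per sample.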
